A study of Mus musculus with 6 samples.

Results

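Interleukin receptors are the surface proteins through which a cell hears the interleukins, the secreted signals of the immune system. Most are built from a chain that binds 1 ligand and a chain that several receptors share, such as the common gamma chain of the receptors for IL-2, IL-4, IL-7, IL-15 and IL-21, or gp130 of the receptors for IL-6 and IL-27. Most of these chains carry Janus kinases, which phosphorylate STAT transcription factors, whereas the receptors for IL-17 and IL-18 signal through adaptor proteins. In myeloid cells such receptors are known for setting the response to cytokines of T and NK cells and of neighbouring macrophages and dendritic cells.

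The genes described here are the 30 interleukin receptor genes of 19938 genes measured, taken by name: Il, a number from 2 to 39, then r and any suffix, without the Il1r genes. The name rule itself used no measured value, although it was set with earlier results of these data known. Each gene is represented by the probe set that the array annotation assigns to that gene alone, and by the one with the highest mean where there are several, as for Il17rd, Il20rb and Il22ra1. Il2rg, which encodes the common gamma chain, Il11ra1 and Il11ra2 were not analysed here.

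Marrow cells of 6 to 10 week old C57BL/6J mice, male per the labels, were cultured for 7 days, sorted and hybridised to 6 arrays, 2 for each of 3 populations. GM-BMDC and GM-BMM grew in 25 ng/ml GM-CSF, a growth factor for myeloid cells, and were sorted as MHCIIhighF4/80low cells, labelled dendritic, and MHCIIlowF4/80high cells, labelled macrophages. M-BMM, also labelled macrophages, grew in 20% medium conditioned by L cells, which supplied M-CSF, and were sorted as positive for CD11b and for that same macrophage antigen, the product of Adgre1. The titles call the arrays of a population biological replicates but give no number of animals or cultures behind an array, so p-values reflect only how far these arrays differ. The labels name no gene alteration. The conditioned medium was not purified M-CSF, and the sort gates differ along with the growth factor between M-BMM and the other populations.

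Values are log2 signals, and a log2 difference of 1 is a 2-fold difference. A gene is called higher or lower where limma, fitted to all 19938 genes on the 6 arrays, gave a Benjamini-Hochberg adjusted p under 0.05, and differences are followed by their standard error, with n = 2 arrays per population. A signal under 5.04, the lower quartile of the table, is termed low, since the files mark no background. In such bulk samples, fewer cells of a type and less RNA per cell cannot be told apart.

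The dendritic cell markers set GM-BMDC apart, and the macrophage markers followed the labels in part. All 8 dendritic cell markers were called higher in GM-BMDC than in GM-BMM and than in M-BMM, with array means of 10.15 to 10.51 against 6.87 to 7.03 and 6.24 to 6.26. Of 7 macrophage markers, 4 were called lower in GM-BMDC than in GM-BMM and 3 lower than in M-BMM, with array means of 9.72 to 10.56, 11.20 to 11.51 and 11.12 to 11.14. The other 3 and 4 macrophage markers were not called. In GM-BMM, 3 dendritic cell markers were called higher and 1 lower than in M-BMM. The label on sex did not hold for 3 of the arrays. Xist, an RNA of female cells, measured 10.68 to 11.66 in both GM-BMDC arrays and GM-BMM replicate 1 against 4.53 to 4.93 in the other 3, and Y-linked Eif2s3y was low (3.94 and 3.66) in the GM-BMDC and GM-BMM arrays numbered 1. For the comparisons with M-BMM, counts without those 2 arrays are given beside the main ones. GM-BMDC replicate 2, high in Xist (10.68) and in Eif2s3y (8.80), stays in the fit without them. Xist therefore separates GM-BMDC from M-BMM in both fits, and its part in that comparison was not tested. The fit without the 2 arrays has 1 residual degree of freedom. Its lone GM-BMDC and GM-BMM arrays are assumed to vary like the M-BMM arrays. The Y-linked covariate used below is the mean signal of Eif2s3y, Uty and Kdm5d. Eif2s3y was 9.32 and 9.17 in M-BMM and split the GM-CSF arrays by replicate number. The covariate is thus partly confounded with the comparisons with M-BMM and with the replicate number, and it leaves out the Xist signal of GM-BMDC replicate 2.

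The interleukin receptor genes differed most between GM-BMDC and M-BMM, where 11 of the 30 were called higher in GM-BMDC and 3 lower. Over all genes the shares were 7.76% higher and 8.9% lower. In GM-BMM against M-BMM, 5 were called higher and 2 lower, where 3.62% and 2.57% of all genes were. In GM-BMDC against GM-BMM, the populations grown with the same factor, 4 were called higher and 1 lower, where 4.69% and 5.74% of all genes were. These shares of all genes are also the ones to set beside the counts for families and lists below. The members' median log2 difference was 0.15 in GM-BMDC minus M-BMM, where that of all genes was -0.002. It was 0.04 in GM-BMM minus M-BMM (all genes -0.02), and 0.15 in the comparison between the GM-CSF populations (all genes 0.02). The comparisons share arrays and are not independent of one another. In all, 14 genes were called in at least 1 comparison and 16 in none, counts given without the matching share of all genes.

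Without the GM-BMDC and GM-BMM arrays numbered 1, 11 genes were called higher and 2 lower in GM-BMDC than in M-BMM, beside 7.98% and 7.63% of all genes. GM-BMM against M-BMM then had 6 higher and 4 lower, beside 4.89% and 3.01% of all genes. GM-BMDC against GM-BMM had 6 higher and 0 lower, beside 4.58% and 5.09% of all genes. In the fit of all arrays, 11 of the members had an unadjusted limma p under 0.05 upward and 4 downward in that comparison. The share of all genes at this unadjusted cut is not given. Both the cut and the arrays differ from those behind the counts before it, so these counts cannot be set against each other.

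**Figure D1:**
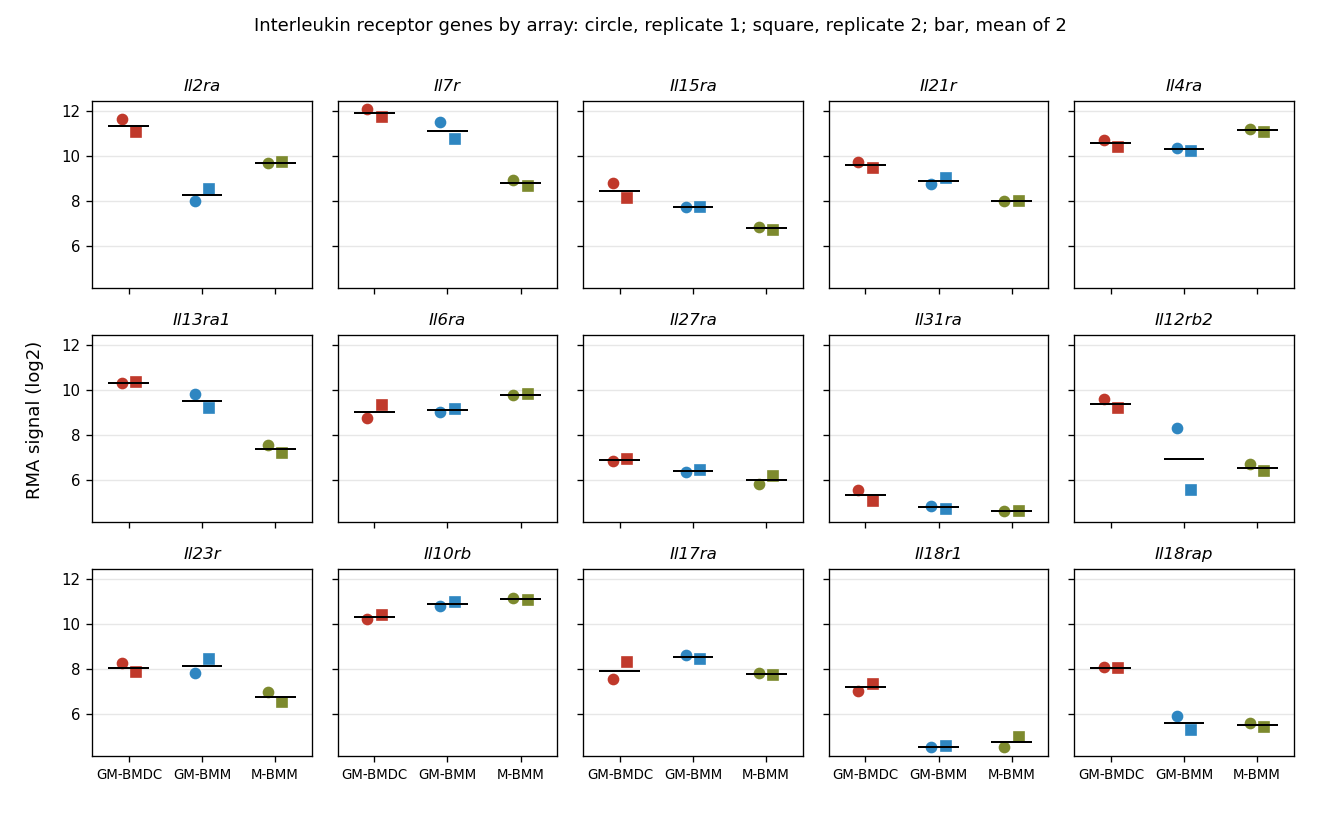
Log2 signal (vertical axis) of the 15 described receptor genes in GM-BMDC, GM-BMM and M-BMM, with a circle for replicate 1, a square for replicate 2 and a bar for the mean of 2. Il18r1 and Il18rap stand high in GM-BMDC, Il7r and Il13ra1 in both GM-CSF populations, and the 2 GM-BMM arrays of Il12rb2 lie far apart at 8.31 and 5.57.

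Both chains of the IL-18 receptor were higher in GM-BMDC than in either macrophage population. Il18r1 encodes the chain that binds IL-18, a cytokine of the IL-1 family, and Il18rap the accessory chain that the receptor needs to signal. The Il18r1 signal was 7.04 and 7.32 in GM-BMDC, 4.52 and 4.57 in GM-BMM and 4.51 and 4.97 in M-BMM. Both GM-BMDC arrays lay above all 4 macrophage arrays, and the macrophage levels were low, so these folds are relative to signals that may be background. Il18r1 was 6.23-fold higher in GM-BMDC than in GM-BMM (log2 difference 2.64 ± 0.18, limma adjusted p = 0.000257) and 5.44-fold higher than in M-BMM (2.44 ± 0.18, limma adjusted p = 0.000206). For Il18rap the values were 8.08 and 8.05 in GM-BMDC, 5.92 and 5.28 in GM-BMM and 5.58 and 5.40 in M-BMM, with the same separation. Il18rap was 5.51-fold higher in GM-BMDC than in GM-BMM (2.46 ± 0.20, limma adjusted p = 0.000558) and 5.94-fold higher than in M-BMM (2.57 ± 0.20, limma adjusted p = 0.000282). Between the macrophage populations the 95% intervals of the log2 difference ran from -0.60 to 0.22 for Il18r1 and from -0.37 to 0.58 for Il18rap.

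T and NK lymphocytes also carry this receptor, and their 10 measured markers had array means of 5.20 to 5.38 in GM-BMDC, 5.12 to 5.18 in GM-BMM and 5.19 to 5.22 in M-BMM. Of these markers 5 were low in every array, among them Cd3d, Cd3g and Ncr1. Only Cd8a, which some dendritic cells also express, was called higher in GM-BMDC than in both macrophage populations, while Cd4 was called lower in GM-BMDC than in M-BMM (5.77 and 5.47 against 7.35 and 7.00). Of 4 B lymphocyte markers, Cd79a (7.15 and 6.23 in GM-BMDC, 3.99 to 4.73 elsewhere) and Ms4a1 (6.87 and 6.14, against 4.66 to 5.34) were called higher in GM-BMDC, while Cd79b was called lower in GM-BMDC than in M-BMM (8.49 and 7.32 against 10.16 and 10.21) and was not called against GM-BMM. Pax5 was not called. The list means were 6.49 to 7.34 in GM-BMDC, 5.61 to 5.78 in GM-BMM and 6.47 to 6.50 in M-BMM. Kit was the 1 mast cell marker of 8 called higher in GM-BMDC, and 5 of the 8 were low in every array. The mast cell list means were 4.90 to 4.97 in GM-BMDC, 4.69 to 4.94 in GM-BMM and 4.70 to 4.77 in M-BMM. The part of the B lymphocyte and mast cell markers in the receptor results was not tested.

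Il18r1 and Il18rap are next to each other among the protein-coding genes of chromosome 1 in RefSeq. Their promoters are shown because both were higher in GM-BMDC. Each run below is the 250 bases before an annotated start in RefSeq, build GRCm38.p6, with capitals where a script found, on either strand, the STAT motif TTCNNNGAA, the PU.1 motif GAGGAAG or the AP-1 motif TGANTCA. Of 3 annotated starts of Il18r1, the one shown holds 2 STAT matches and 1 PU.1 match, and the other 2 windows hold no match. The Il18rap window holds 2 PU.1 matches in a purine-rich stretch.
Il18r1 (chr1:40465756-40466005, plus strand): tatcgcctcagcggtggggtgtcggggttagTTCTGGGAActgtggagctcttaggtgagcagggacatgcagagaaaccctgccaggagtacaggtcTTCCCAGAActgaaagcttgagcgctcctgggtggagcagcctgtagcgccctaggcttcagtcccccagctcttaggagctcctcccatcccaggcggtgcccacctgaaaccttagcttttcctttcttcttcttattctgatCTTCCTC
Il18rap (chr1:40515112-40515361, plus strand): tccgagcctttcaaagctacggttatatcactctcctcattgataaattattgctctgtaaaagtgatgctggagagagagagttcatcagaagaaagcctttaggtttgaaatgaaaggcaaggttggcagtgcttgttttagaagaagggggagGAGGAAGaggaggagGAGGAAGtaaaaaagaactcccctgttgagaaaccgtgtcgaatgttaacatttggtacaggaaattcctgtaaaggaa

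Among all 32851 promoter windows of this length, 7.02% held the STAT motif, 10.6% the PU.1 motif and 6.75% the AP-1 motif. Of the 30 members, 23 had a promoter window, and 4 of these genes held the STAT motif, 3 the PU.1 motif and 6 the AP-1 motif in at least 1 window. Counted by window, as in the shares above, 4, 3 and 6 of their 26 windows held these motifs. A match is a run of letters and not a shown binding site. The STAT motif was present in windows of Il12rb2, Il18r1, Il31ra and Il7r, and the AP-1 motif in those of Il13ra2, Il15ra, Il17rb, Il20ra, Il22ra1 and Il5ra. Whether motifs go with the calls was not tested.

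Among receptors that use the common gamma chain, Il4ra is left to the IL-4 and IL-13 chains. It was lower in both GM-CSF populations than in M-BMM. Of the 6 other measured genes, 4 were called higher in GM-BMDC than in M-BMM, beside 7.76% of all genes. In GM-BMM against M-BMM, 3 were called higher and 1 lower, beside 3.62% and 2.57% of all genes. In GM-BMDC against GM-BMM, 2 were called higher, beside 4.69% of all genes. Il2ra encodes CD25, the chain that gives the IL-2 receptor its high affinity, and it was called in all 3 comparisons, as was Il21r. Its signal was 11.64 and 11.07 in GM-BMDC, 7.99 and 8.55 in GM-BMM and 9.68 and 9.73 in M-BMM. GM-BMDC was highest, M-BMM in between and GM-BMM lowest, and no arrays of different populations overlapped. Il2ra was 8.49-fold higher in GM-BMDC than in GM-BMM (3.09 ± 0.23, limma adjusted p = 0.000419) and 3.15-fold higher than in M-BMM (1.65 ± 0.23, limma adjusted p = 0.00297). In GM-BMM it was 2.70-fold lower than in M-BMM (-1.43 ± 0.23, limma adjusted p = 0.0123). This last call ended without M-BMM replicate 1 (-1.46, limma adjusted p = 0.118), without M-BMM replicate 2 (-1.40, limma adjusted p = 0.133) and with all probe sets tested (limma adjusted p = 0.0548). Il2rb, the signalling chain shared by the IL-2 and IL-15 receptors, lay between 4.91 and 5.48 in all arrays and was called in no comparison.

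The Il2ra window is shown because the gene was called in all comparisons, with GM-BMM lowest. It holds none of the 3 motifs.
Il2ra (chr2:11642542-11642791, plus strand): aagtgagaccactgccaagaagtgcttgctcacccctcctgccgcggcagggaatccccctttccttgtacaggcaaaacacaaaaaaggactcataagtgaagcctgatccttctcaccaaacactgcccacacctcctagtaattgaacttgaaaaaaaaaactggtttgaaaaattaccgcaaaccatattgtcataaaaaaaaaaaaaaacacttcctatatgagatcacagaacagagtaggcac

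Il7r encodes the alpha chain of the IL-7 receptor, which also forms the receptor for the epithelial cytokine TSLP together with the product of Crlf2. The Il7r signal was 12.09 and 11.74 in GM-BMDC, 11.51 and 10.77 in GM-BMM and 8.94 and 8.65 in M-BMM. All 4 GM-CSF arrays stood above both M-BMM arrays. Il7r was 8.68-fold higher in GM-BMDC than in M-BMM (3.12 ± 0.25, limma adjusted p = 0.000291) and 5.06-fold higher in GM-BMM than in M-BMM (2.34 ± 0.25, limma adjusted p = 0.00199). Between GM-BMDC and GM-BMM the difference was 0.78 ± 0.25 (limma adjusted p = 0.103). It passed without GM-BMM replicate 1 (1.14, limma adjusted p = 0.0186), without the GM-BMDC and GM-BMM arrays numbered 1 (0.97, limma adjusted p = 0.0181) and with Y-linked signal as a covariate (0.77, limma adjusted p = 0.0214). Crlf2 lay between 8.31 and 8.77 in the 6 arrays and was called in no comparison.

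Il15ra, which binds IL-15 and can present it to neighbouring cells, had signals of 8.80 and 8.14 in GM-BMDC, 7.74 and 7.73 in GM-BMM and 6.83 and 6.73 in M-BMM. The populations stepped down in this order without overlap. Il15ra was 3.23-fold higher in GM-BMDC than in M-BMM (1.69 ± 0.20, limma adjusted p = 0.00153) and 1.94-fold higher in GM-BMM than in M-BMM (0.96 ± 0.20, limma adjusted p = 0.0359). GM-BMDC and GM-BMM differed by 0.73 ± 0.20 (limma adjusted p = 0.0644), a difference that passed without GM-BMDC replicate 2 (1.06, limma adjusted p = 0.0051) and with the Y-linked covariate (limma adjusted p = 0.0484). The call between GM-BMM and M-BMM did not hold without any single array of those 2 populations. It gave 0.95 and 0.96 without GM-BMM replicate 1 and replicate 2 (limma adjusted p = 0.122 and 0.0982), and 1.01 and 0.90 without M-BMM replicate 1 and replicate 2 (limma adjusted p = 0.189 and 0.239). Nor did it hold with all probe sets tested (limma adjusted p = 0.102) or with the Y-linked covariate (0.78, limma adjusted p = 0.111).

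Il21r, the receptor chain for the T cell cytokine IL-21, gave 9.73 and 9.46 in GM-BMDC, 8.75 and 9.02 in GM-BMM and 7.99 and 8.02 in M-BMM. Again the populations did not overlap, and the gene was called in all 3 comparisons. Il21r was 3.01-fold higher in GM-BMDC than in M-BMM (1.59 ± 0.14, limma adjusted p = 0.000485), 1.84-fold higher in GM-BMM than in M-BMM (0.88 ± 0.14, limma adjusted p = 0.0128) and 1.63-fold higher in GM-BMDC than in GM-BMM (0.71 ± 0.14, limma adjusted p = 0.0218). The call between GM-BMDC and GM-BMM ended without GM-BMDC replicate 1 (0.57, limma adjusted p = 0.115), GM-BMM replicate 1 (0.58, limma adjusted p = 0.0891) or both (0.44, limma adjusted p = 0.161). It also ended without either M-BMM array, the same as fitting only the groups compared (0.71, limma adjusted p = 0.0632), and with all probe sets tested (limma adjusted p = 0.0699). Between GM-BMM and M-BMM the call ended without M-BMM replicate 1 (0.86, limma adjusted p = 0.124), without M-BMM replicate 2 (0.90, limma adjusted p = 0.115) and with all probe sets tested (limma adjusted p = 0.0506). Il9r, for the mast cell and T cell growth factor IL-9, stayed between 6.01 and 6.196.

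The chains that bind IL-4 and IL-13, the cytokines of type 2 immunity, went in opposite directions. Il13ra1, which pairs with the Il4ra product in the receptor that both cytokines use, had signals of 10.32 and 10.36 in GM-BMDC, 9.85 and 9.22 in GM-BMM and 7.57 and 7.22 in M-BMM. As for Il7r, the 4 GM-CSF arrays lay well above M-BMM. Il13ra1 was 7.68-fold higher in GM-BMDC than in M-BMM (2.94 ± 0.21, limma adjusted p = 0.000222) and 4.39-fold higher in GM-BMM than in M-BMM (2.13 ± 0.21, limma adjusted p = 0.00154). The difference between GM-BMDC and GM-BMM was 0.81 ± 0.21 (limma adjusted p = 0.0573), and it passed without GM-BMM replicate 1 (1.12, limma adjusted p = 0.0123), without both arrays numbered 1 (1.14, limma adjusted p = 0.0116), with cyclic loess (0.87, limma adjusted p = 0.0453), among genes above the median (limma adjusted p = 0.0469) and with the Y-linked covariate (0.80, limma adjusted p = 0.0418). Il13ra1 lies on the X chromosome, and the arrays with Xist (10.32, 10.36 and 9.85) read higher than the GM-CSF array without it (9.22), whose part in the result was not tested.

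Il4ra encodes the IL-4 receptor alpha chain. It measured 10.73 and 10.42 in GM-BMDC, 10.36 and 10.24 in GM-BMM and 11.23 and 11.08 in M-BMM. M-BMM was highest, above all 4 GM-CSF arrays. Il4ra was 1.80-fold lower in GM-BMM than in M-BMM (-0.85 ± 0.14, limma adjusted p = 0.0131) and 1.495-fold lower in GM-BMDC than in M-BMM (-0.58 ± 0.14, limma adjusted p = 0.0291). GM-BMDC and GM-BMM differed by 0.27 ± 0.14, with a 95% interval from -0.06 to 0.60. The GM-BMM call ended without GM-BMM replicate 2 (-0.79, limma adjusted p = 0.0508), M-BMM replicate 1 (-0.78, limma adjusted p = 0.133) or M-BMM replicate 2 (-0.92, limma adjusted p = 0.0906), and with all probe sets tested (limma adjusted p = 0.0507). The GM-BMDC call ended without GM-BMDC replicate 2 (-0.43, limma adjusted p = 0.115), M-BMM replicate 1 (-0.51, limma adjusted p = 0.187) or M-BMM replicate 2 (-0.65, limma adjusted p = 0.0983). It also ended with cyclic loess (-0.49, limma adjusted p = 0.068) and with all probe sets tested (limma adjusted p = 0.0772). Il13ra2, known as a decoy for IL-13, was low in all arrays (3.11 to 3.66).

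The promoter windows of Il7r and Il13ra1 are shown because they had the largest differences between GM-BMM and M-BMM among the members. That of Il7r has 1 STAT match and that of Il13ra1 none of the motifs.
Il7r (chr15:9529877-9530126, minus strand): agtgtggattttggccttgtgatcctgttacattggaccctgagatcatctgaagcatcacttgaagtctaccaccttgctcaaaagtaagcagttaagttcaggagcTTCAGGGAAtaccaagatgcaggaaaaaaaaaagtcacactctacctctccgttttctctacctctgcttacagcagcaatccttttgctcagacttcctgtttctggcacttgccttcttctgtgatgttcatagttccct
Il13ra1 (chrX:36111858-36112107, plus strand): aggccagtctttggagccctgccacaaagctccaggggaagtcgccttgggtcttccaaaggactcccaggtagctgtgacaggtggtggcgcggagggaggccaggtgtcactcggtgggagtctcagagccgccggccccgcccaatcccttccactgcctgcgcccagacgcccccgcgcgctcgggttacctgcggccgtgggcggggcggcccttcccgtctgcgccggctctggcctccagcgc

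**Figure D2:**
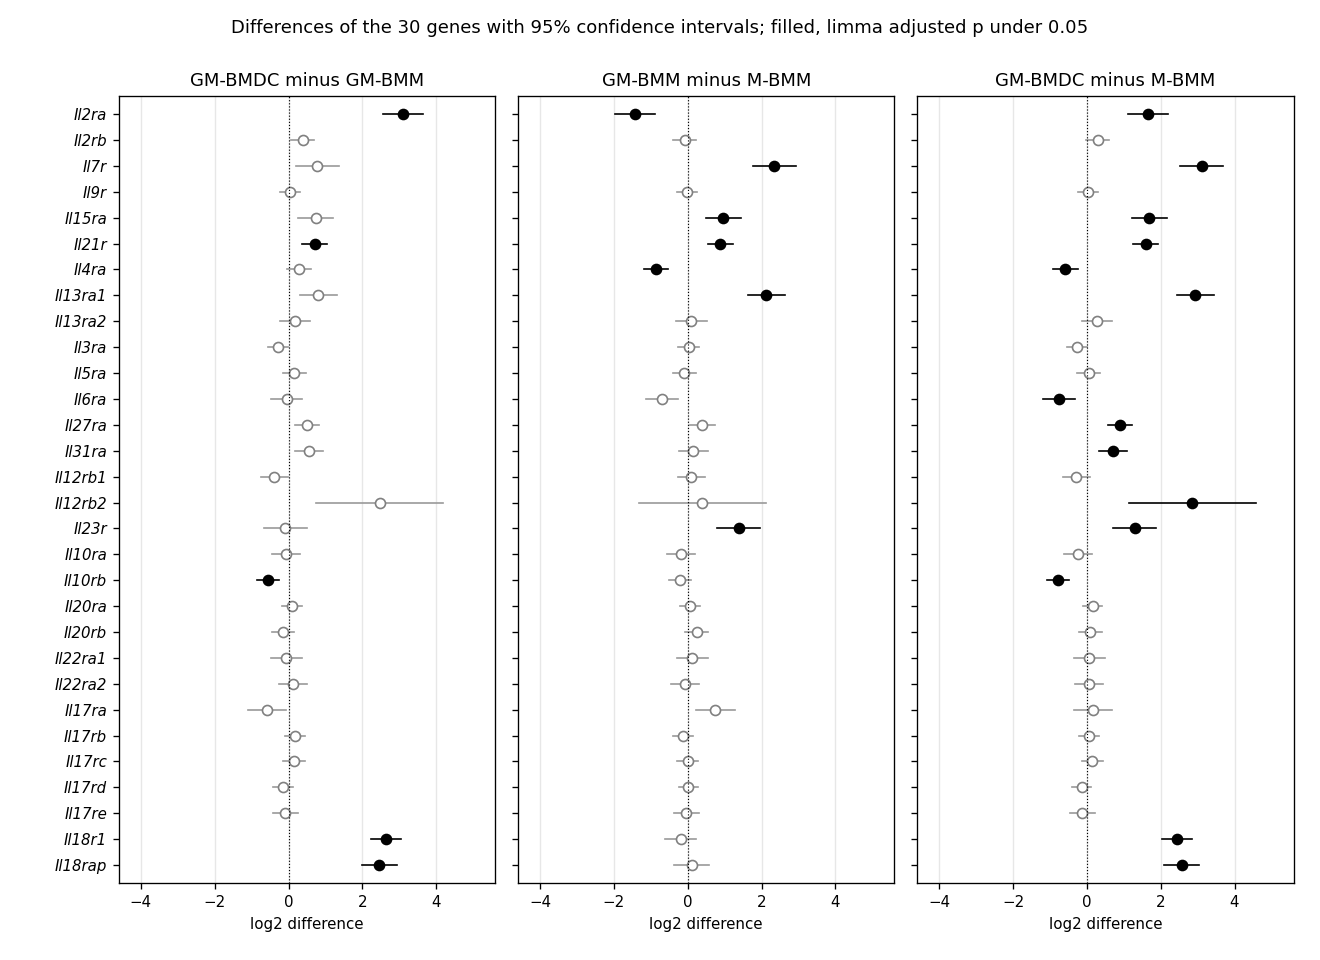
Log2 differences (horizontal axis) of all 30 receptor genes in the 3 comparisons, each with its 95% interval from limma, filled where called. GM-BMDC minus M-BMM has 11 filled points above 0 and 3 below, and the interval of Il12rb2 is the widest, from -1.32 to 2.11 in GM-BMM minus M-BMM.

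The receptors of the IL-12 and IL-23 pair use a common chain, encoded by Il12rb1, and a private one each. Il12rb1 lay between 6.53 and 7.21 and was called nowhere. Il12rb2, the private chain for IL-12, had signals of 9.60 and 9.20 in GM-BMDC, 8.31 and 5.57 in GM-BMM and 6.69 and 6.39 in M-BMM. GM-BMDC lay above the other arrays, whereas 1 GM-BMM array stood above both M-BMM arrays and the other below them. Il12rb2 was 7.25-fold higher in GM-BMDC than in M-BMM (2.86 ± 0.73, limma adjusted p = 0.0368), and 2.46 ± 0.73 higher than in GM-BMM, which did not pass (limma adjusted p = 0.0816). The call against M-BMM ended without GM-BMDC replicate 1 (2.66, limma adjusted p = 0.158), GM-BMDC replicate 2 (3.06, limma adjusted p = 0.0899), M-BMM replicate 1 (3.01, limma adjusted p = 0.169) or M-BMM replicate 2 (2.71, limma adjusted p = 0.187). A trended and robust variance (limma adjusted p = 0.15), all probe sets tested (limma adjusted p = 0.107) and the Y-linked covariate (1.83, limma adjusted p = 0.0686) ended it too.

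The other comparisons of Il12rb2 turned on the GM-BMM arrays. Without GM-BMM replicate 1, GM-BMDC exceeded GM-BMM by 3.83, and without GM-BMM replicate 2 by 1.096. Without both GM-CSF arrays numbered 1 the difference was 3.63, and with the Y-linked covariate 2.43 (limma adjusted p = 0.0135). GM-BMM minus M-BMM was 0.39 ± 0.73 with all arrays (limma adjusted p = 0.858), 1.76 without GM-BMM replicate 2 and -0.97 without the GM-BMDC and GM-BMM arrays numbered 1. No p-value is given for these fits with 1 GM-BMM array. Their spread leaves out the gap of 2.74 between the GM-BMM arrays, while the M-BMM arrays lay 0.30 apart. GM-BMM replicate 1 also differed from replicate 2 in Xist (11.58 against 4.93), in the dendritic cell marker Ccl22 (7.56 against 6.41) and in the neutrophil marker S100a8 (8.54 against 7.04). The neutrophil markers Ngp (9.02 against 7.02), S100a9 (6.93 against 6.06), Ltf (6.79 against 5.89) and Cxcr2 (4.32 against 3.77) went the same way as S100a8. Camp (5.86 against 6.03), Elane (5.78 against 5.96) and Mpo (5.65 against 5.68) of that list went the other way by smaller gaps. Some dendritic cell markers also went the other way, such as Fscn1 (6.50 against 6.93). The mean of the dendritic cell list in replicate 1 was close to that in replicate 2, since the list ranged from 6.87 to 7.03 in GM-BMM. The mean of the neutrophil list was 6.61 in GM-BMM replicate 1 and 5.93 in replicate 2. It ranged from 6.13 to 6.203 in GM-BMDC and from 6.14 to 6.25 in M-BMM. The part of these differences in the Il12rb2 value was not tested.

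Il23r, the private chain for IL-23, was higher in both GM-CSF populations than in M-BMM. It measured 8.26 and 7.85 in GM-BMDC, 7.82 and 8.46 in GM-BMM and 6.98 and 6.55 in M-BMM, so that the GM-CSF populations overlapped each other and both lay above M-BMM. Il23r was 2.60-fold higher in GM-BMM (1.38 ± 0.25, limma adjusted p = 0.0202) and 2.45-fold higher in GM-BMDC (1.29 ± 0.25, limma adjusted p = 0.0124) than in M-BMM. GM-BMDC minus GM-BMM was -0.09, with a 95% interval from -0.68 to 0.50. The GM-BMM call ended without GM-BMM replicate 2 (1.06, limma adjusted p = 0.0547), M-BMM replicate 1 (1.597, limma adjusted p = 0.0875) or M-BMM replicate 2 (1.16, limma adjusted p = 0.189), and with all probe sets tested (limma adjusted p = 0.0735). The GM-BMDC call ended without GM-BMDC replicate 1 (1.09, limma adjusted p = 0.0764) or M-BMM replicate 2 (1.07, limma adjusted p = 0.107).

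Of the 3 chains for IL-6, IL-27 and IL-31, 2 were called higher and 1 lower in GM-BMDC than in M-BMM, beside 7.76% and 8.9% of all genes. None was called by limma in the other comparisons, where 2 of them in each had an unadjusted p under 0.05. Il6ra, the chain that binds IL-6, gave 8.77 and 9.33 in GM-BMDC, 9.04 and 9.17 in GM-BMM and 9.77 and 9.83 in M-BMM. M-BMM was above all GM-CSF arrays, which overlapped each other. Il6ra was 1.68-fold lower in GM-BMDC than in M-BMM (-0.75 ± 0.18, limma adjusted p = 0.0311), and GM-BMM minus M-BMM was -0.69 ± 0.18 (limma adjusted p = 0.0781), which passed when only those groups were fitted (limma adjusted p = 0.0186) or without the GM-CSF arrays numbered 1 (-0.63, limma adjusted p = 0.0344). The GM-BMDC call ended without GM-BMDC replicate 1 (-0.47, limma adjusted p = 0.0976), M-BMM replicate 1 (-0.78, limma adjusted p = 0.151), M-BMM replicate 2 (-0.71, limma adjusted p = 0.162) or the GM-BMDC and GM-BMM arrays numbered 1 (-0.47, limma adjusted p = 0.064). All probe sets tested (limma adjusted p = 0.0876) and the Y-linked covariate (-0.55, limma adjusted p = 0.111) ended it as well.

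Il27ra, the private chain of the IL-27 receptor, measured 6.83 and 6.95 in GM-BMDC, 6.34 and 6.46 in GM-BMM and 5.84 and 6.16 in M-BMM, with no overlap. It was 1.85-fold higher in GM-BMDC than in M-BMM (0.89 ± 0.14, limma adjusted p = 0.00507), and the differences of GM-BMM from its neighbours were 0.49 ± 0.14 below GM-BMDC (limma adjusted p = 0.0721) and 0.40 ± 0.14 above M-BMM (limma adjusted p = 0.169). Il31ra, of the receptor for the itch cytokine IL-31, gave 5.55 and 5.08 in GM-BMDC, 4.83 and 4.72 in GM-BMM and 4.61 and 4.63 in M-BMM, low in both macrophage populations. Its difference between GM-BMDC and GM-BMM, 0.54 ± 0.16 (limma adjusted p = 0.0841), passed without GM-BMDC replicate 2 (0.78, limma adjusted p = 0.0169). It was 1.62-fold higher in GM-BMDC than in M-BMM (0.70 ± 0.16, limma adjusted p = 0.0258), relative to a signal that may be background. This call ended without GM-BMDC replicate 1 (0.46, limma adjusted p = 0.0934), M-BMM replicate 1 (0.69, limma adjusted p = 0.152), M-BMM replicate 2 (0.71, limma adjusted p = 0.131) or the arrays numbered 1 of both GM-CSF populations (0.46, limma adjusted p = 0.0624). It also ended with all probe sets tested (limma adjusted p = 0.0748) and with the Y-linked covariate (0.53, limma adjusted p = 0.096).

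Of the 6 genes for IL-10 and related cytokines, Il10rb was called and the others were not by limma, with no unadjusted p under 0.05 among those others. Il10rb encodes a chain shared by the receptors for IL-10, IL-22 and the type III interferons. Its signal was 10.24 and 10.42 in GM-BMDC, 10.80 and 10.99 in GM-BMM and 11.16 and 11.06 in M-BMM, lowest in GM-BMDC without overlap. Il10rb was 1.72-fold lower in GM-BMDC than in M-BMM (-0.78 ± 0.13, limma adjusted p = 0.00566) and 1.48-fold lower than in GM-BMM (-0.57 ± 0.13, limma adjusted p = 0.0309). The call against M-BMM ended without M-BMM replicate 1 (-0.73, limma adjusted p = 0.0634). That against GM-BMM ended without GM-BMDC replicate 1 (-0.48, limma adjusted p = 0.153), GM-BMM replicate 2 (-0.47, limma adjusted p = 0.141), either M-BMM array (-0.57, limma adjusted p = 0.0742) or the GM-BMDC and GM-BMM arrays numbered 1 (-0.57, limma adjusted p = 0.0757), and with all probe sets tested (limma adjusted p = 0.0827).

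Il10ra, the chain that binds IL-10 itself, measured 9.97 and 10.22 in GM-BMDC, 9.95 and 10.36 in GM-BMM and 10.31 and 10.37 in M-BMM. The populations overlapped or nearly met, and the 95% intervals of the differences ran from -0.44 to 0.32 for GM-BMDC minus GM-BMM, from -0.57 to 0.20 for GM-BMM minus M-BMM, and from -0.63 to 0.14 for GM-BMDC minus M-BMM. Il20rb lay between 7.26 and 7.69 in all arrays. Il22ra1 ranged from 5.57 to 6.02. Il20ra (4.05 to 4.28) and Il22ra2 (4.18 to 4.63), which encodes a soluble binder of IL-22, were low throughout.

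None of the 5 IL-17 receptor genes was called by limma in any comparison, and 2 of their tests, both of Il17ra, had an unadjusted p under 0.05. Il17ra, the common chain of this family, came closest. It measured 7.58 and 8.30 in GM-BMDC, 8.61 and 8.44 in GM-BMM and 7.83 and 7.72 in M-BMM. GM-BMM lay above the other arrays, and GM-BMDC spanned the M-BMM values. GM-BMM minus M-BMM was 0.75 ± 0.22 (limma adjusted p = 0.106), which passed when only those groups were fitted (limma adjusted p = 0.0176), and GM-BMDC minus GM-BMM was -0.59 ± 0.22 (limma adjusted p = 0.159), which passed without GM-BMDC replicate 2 (-0.95, limma adjusted p = 0.011). Without both GM-CSF arrays numbered 1, GM-BMM minus M-BMM was 0.66. GM-BMDC minus M-BMM was then 0.52, against 0.16 ± 0.22 with all arrays (limma adjusted p = 0.728). Il17rb, for IL-25, ranged from 5.44 to 5.74, Il17rc, the partner chain for IL-17A and IL-17F, from 6.37 to 6.69, Il17rd from 5.64 to 5.86 and Il17re, for IL-17C, from 5.65 to 6.05. Of the IL-3 and IL-5 receptor chains, Il3ra ranged from 8.29 to 8.69 and Il5ra was low in all arrays (3.998 to 4.30). Over these genes and the others without a call, Il17ra left out (15 genes), log2 differences ran from -0.39 to 0.38, the lowest limma adjusted p was 0.134 and 3 of the tests had an unadjusted p under 0.05.

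Several members lie next to one another in the genome, and some neighbours differed in sign. Among the protein-coding genes of RefSeq, 6 pairs of members were adjacent. Il18r1 and Il18rap on chromosome 1 were both called higher in GM-BMDC than in each macrophage population. On chromosome 2, Il2ra was lower and Il15ra higher in GM-BMM than in M-BMM (-1.43 ± 0.23 against 0.96 ± 0.20). Il4ra and Il21r on chromosome 7 also differed in sign, at -0.85 ± 0.14 and 0.88 ± 0.14 in GM-BMM minus M-BMM and -0.58 ± 0.14 and 1.59 ± 0.14 in GM-BMDC minus M-BMM. Il12rb2 and Il23r on chromosome 6 had 2.46 ± 0.73 and -0.09 ± 0.25 in GM-BMDC minus GM-BMM, neither of them called. Neither Il17re and Il17rc on chromosome 6 nor Il22ra2 and Il20ra on chromosome 10 were called in any comparison. Differences between neighbours were not tested.

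**Figure D3:**
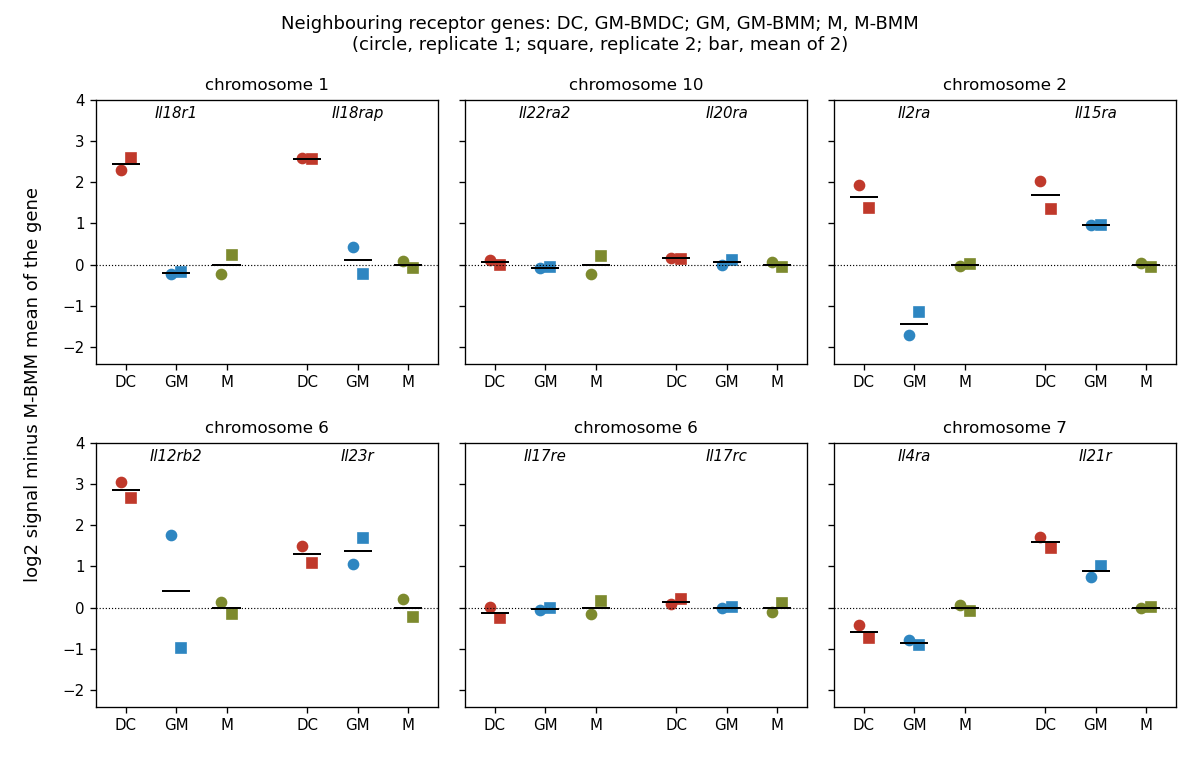
Log2 signal of each array minus the gene's own M-BMM mean (vertical axis) for the 6 adjacent pairs, with DC for GM-BMDC, GM for GM-BMM and M for M-BMM, a circle for replicate 1, a square for replicate 2 and a bar for the mean of 2. Il18r1 and Il18rap both stand high in GM-BMDC, while Il4ra falls below 0 and Il21r rises above it in both GM-CSF populations.

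Partners outside the name rule were read from a list of 12 genes, which holds shared chains and also Ebi3, a subunit of IL-27, and Il18bp, a soluble binder of IL-18. Of these, 5 were called higher and 1 lower in GM-BMDC than in M-BMM, 3 higher and 1 lower in GM-BMM than in M-BMM, and 1 higher and 2 lower in GM-BMDC than in GM-BMM. The lower call in both comparisons with M-BMM was Ebi3, and those in GM-BMDC against GM-BMM were Il18bp and Il1rap. Il6st, which encodes gp130, gave 10.93 and 10.75 in GM-BMDC, 9.19 and 8.56 in GM-BMM and 8.28 and 8.17 in M-BMM. Il6st was 3.90-fold higher in GM-BMDC than in GM-BMM (1.96 ± 0.20, limma adjusted p = 0.00138) and 6.12-fold higher than in M-BMM (2.61 ± 0.20, limma adjusted p = 0.000266), while Il6ra, which signals through it, was lower in GM-BMDC than in M-BMM. Csf2ra, Csf2rb and Csf2rb2, chains that bind GM-CSF or pair with Il3ra and Il5ra, were called higher in both GM-CSF populations than in M-BMM, whereas Il3ra and Il5ra were called in no comparison. Csf2rb2, the beta chain of the mouse IL-3 receptor, measured 12.02 and 11.81 in GM-BMDC, 11.74 and 11.24 in GM-BMM and 9.09 and 8.99 in M-BMM, a log2 difference from M-BMM of 2.87 ± 0.18 in GM-BMDC and 2.45 ± 0.18 in GM-BMM (limma adjusted p = 1e-04 and 0.000348). Csf2rb, its near-identical paralog that serves GM-CSF as well, differed by 2.38 ± 0.19 and 1.996 ± 0.19 and Csf2ra by 1.26 ± 0.11 and 1.13 ± 0.11, and probes of the first 2 may share signal.

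Signalling genes beneath the receptors were read from 9 measured Janus kinase and STAT genes, of which 4 were called higher and 0 lower in GM-BMDC than in GM-BMM, with the same counts against M-BMM, and 1 higher and 0 lower in GM-BMM than in M-BMM. Downward differences with an unadjusted p under 0.05 in limma were those of Stat2 in GM-BMDC minus GM-BMM (-0.79) and Stat4 in GM-BMM minus M-BMM (-0.80). Stat4, the factor that IL-12 activates, measured 11.27 and 10.66 in GM-BMDC, 8.003 and 7.40 in GM-BMM and 8.53 and 8.48 in M-BMM. It was 9.62-fold higher in GM-BMDC than in GM-BMM (3.27 ± 0.25, limma adjusted p = 0.000428) and 5.50-fold higher than in M-BMM (2.46 ± 0.25, limma adjusted p = 0.000712). Jak2, the kinase of the GM-CSF, IL-3, IL-12 and IL-23 receptors, stepped down from 11.83 and 11.38 in GM-BMDC to 10.25 and 10.52 in GM-BMM and 8.59 and 8.39 in M-BMM, and was called in all 3 comparisons. Stat5a, activated by common gamma chain and GM-CSF receptors, was 3.14-fold higher in GM-BMDC than in GM-BMM (1.65 ± 0.24, limma adjusted p = 0.0054), and Tyk2 1.51-fold higher (0.59 ± 0.13, limma adjusted p = 0.0305). Stat6, the factor of IL-4 and IL-13, lay between 10.16 and 10.35 and was not called.

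**Figure D4:**
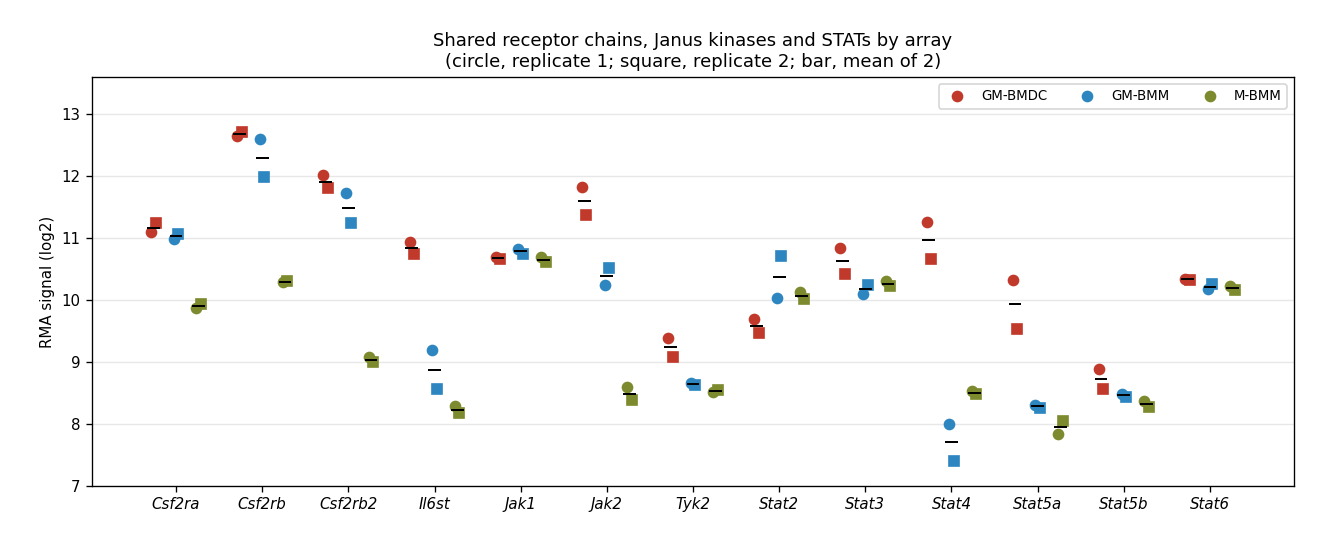
Log2 signal (vertical axis) of shared receptor chains, Janus kinases and STATs in each array, coloured by population, with a circle for replicate 1, a square for replicate 2 and a bar for the mean of 2. Stat4 and Il6st stand high in GM-BMDC alone, Csf2rb and Csf2rb2 in both GM-CSF populations, and Jak1 and Stat6 show little spread.

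Adaptors carry the signal of the IL-17 and IL-18 receptors. Of 10 measured, 1 was called higher and 1 lower in GM-BMDC than in GM-BMM, 1 higher and 0 lower in GM-BMM than in M-BMM, and 2 higher and 0 lower in GM-BMDC than in M-BMM. Traf5, a signalling adaptor of the TRAF family, accounts for 1 call in each comparison, at 4.03-fold higher in GM-BMDC than in M-BMM (2.01 ± 0.19, limma adjusted p = 0.000539). Myd88, the adaptor of the IL-18 receptor, lay between 10.63 and 10.94 in all arrays and was not called.

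Of 29 measured ligand genes, 2 were called higher and 3 lower in GM-BMDC than in GM-BMM, 2 higher and 0 lower in GM-BMM than in M-BMM, and 3 higher and 3 lower in GM-BMDC than in M-BMM. Of the 29, 7 were low in every array. Il18 was lower in GM-BMDC, where its receptor pair was higher, with 5.96 and 6.49 in GM-BMDC, 7.72 and 6.97 in GM-BMM and 7.43 and 7.06 in M-BMM (-1.12 ± 0.28 against GM-BMM and -1.02 ± 0.28 against M-BMM, limma adjusted p = 0.0452 and 0.0447). Il12b, the subunit shared by IL-12 and IL-23, was 5.79-fold higher in GM-BMDC than in GM-BMM (2.53 ± 0.27, limma adjusted p = 0.00167), while Il12a, the other subunit of IL-12, was 6.84-fold lower (-2.77 ± 0.12, limma adjusted p = 4.23e-05). Il10 was low in GM-BMDC (4.42 and 4.10) and measured 5.34 and 7.77 in GM-BMM and 8.58 and 8.68 in M-BMM. Its log2 difference between GM-BMDC and M-BMM was -4.38 ± 0.65 (limma adjusted p = 0.00386), taken from a GM-BMDC signal that may be background.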

How the data were processed

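The deposited values of 6 Affymetrix arrays are log2 signals, which the authors made with Affymetrix Expression Console 1.1 and RMA, per the submitters' processing notes; the genome build is not given in the sources used here. Of 35556 probe sets, 21789 had 1 gene in the platform annotation, 1621 several and 12146 none. Each of 19938 genes was read from its brightest probe set by mean. Array medians were 6.18 to 6.28. Arrays have no read depth, and their number limits the precision.

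Group means were fitted on all 6 arrays with limma 3.58.1 in R 4.3.3 (3 residual and 4.34 prior degrees of freedom), two-sided, adjusted over all genes within a comparison. No filter was used. In simulated data of this layout, 2-fold changes were found in 68.0% to 74.0% and 4-fold changes in 98.5% to 99.0% of 200 changed genes, with 1 to 12 false calls. The simulation used normal noise from limma's own variance model, equal in all populations. It does not show how the fit fares where the populations differ in spread or sex. Tables and figures used Python 3.11.15. Genes called, or separated by 0.5 between populations, are given array by array. The members, lists and alternatives were chosen with earlier results of these data known. The symbols of all 30 members matched RefSeq. Lists came from textbook knowledge. The alternatives left out arrays, added a block or covariate, or changed the fit, filter, normalization or features. Plasmacytoid, eosinophil and fibroblast lists, not set against the receptor results, had at most 1 gene called per comparison and direction. Of 4 innate lymphoid entries only 1, Gata3, was measured, so that list could show no more. Gata3 was called in no comparison.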

Additional observations from a re-analysis of the deposited data

How the results depend on the processing

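Of 26 calls of single receptor genes over the 3 comparisons, 13 calls in 8 genes (Il2ra, Il7r, Il13ra1, Il15ra, Il18r1, Il18rap, Il21r and Il27ra) passed under every alternative in which the gene was tested. Genes above the median signal left out Il18r1, Il18rap and Il31ra. Leaving out 1 array gave 3 to 6 higher and 0 to 2 lower in GM-BMDC minus GM-BMM, 2 to 6 higher and 0 to 3 lower in GM-BMM minus M-BMM, and 8 to 11 higher and 0 to 3 lower in GM-BMDC minus M-BMM. Without either M-BMM array 14 of the 26 calls passed, and with all probe sets tested 15. With all probe sets, GM-BMDC minus GM-BMM had 0 lower, GM-BMM minus M-BMM 2 higher and 0 lower, and GM-BMDC minus M-BMM 1 lower. Fitting only the groups compared left 0 lower in GM-BMDC minus GM-BMM. Without both GM-CSF arrays numbered 1, Il12rb2 in GM-BMM minus M-BMM was -0.97, against 0.39 with all arrays. The Y-linked covariate gave 8 higher in GM-BMDC minus GM-BMM. The replicate block also gave 8 higher there, against 4 without it, adding Il7r, Il12rb2, Il13ra1 and Il15ra, and ended none of the 26 calls. Deviations of same-numbered arrays correlated at 0.024, 0.026 and -0.132, too little to treat the numbers as a pairing. With 2 arrays a population this does not settle whether some share an origin: both GM-CSF arrays numbered 1 were low in Eif2s3y (3.94 and 3.66), while those numbered 2 were not (8.80 and 9.10) but differed in Xist (10.68 and 4.93). A block with the M-BMM numbers crossed, added after seeing the data, gave 4 higher and 1 lower. The causes of these changes were not tested, apart from the fewer arrays or more features that the settings impose. Shares of all genes called are not given in this section, so its counts do not show whether receptor genes changed more than others. Centring the arrays and averaging probe sets changed no call, and cyclic loess ended 1 call and added 1.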

Other observations

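The largest gap between the arrays of a population among the receptor genes was 2.74 in Il12rb2 in GM-BMM, exceeded by 17 of the 19938 genes there. In GM-BMDC it was 0.72 in Il17ra and in M-BMM 0.46 in Il18r1. The median gap of the receptor genes was 0.23 for GM-BMDC arrays (0.145 over all genes), 0.149 for GM-BMM arrays (0.139) and 0.15 for M-BMM arrays (0.12). For the 3 receptor genes with several probe sets, Il20rb showed differences of one sign in its 3 probe sets (-0.143 to -0.184 in GM-BMDC minus GM-BMM), whereas the second probe set of Il22ra1 gave -0.122 in GM-BMDC minus M-BMM against 0.059 for the one used, and the cause was not tested.

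Il1rap, a chain that several receptors of the IL-1 family share but not that for IL-18, was 1.64-fold lower in GM-BMDC than in GM-BMM (-0.71 ± 0.14, limma adjusted p = 0.0172). Il18bp, a soluble protein that binds IL-18, was 1.96-fold lower in the same comparison (-0.97 ± 0.21, limma adjusted p = 0.0288). Ebi3, a subunit of IL-27, measured 10.18 and 9.83 in GM-BMDC, 10.33 in both GM-BMM arrays and 11.30 and 11.53 in M-BMM, so M-BMM stood above the rest (1.41 ± 0.15 below it in GM-BMDC on the log2 scale, limma adjusted p = 0.00089). Ifnlr1, the private chain of the type III interferon receptor, was 1.77-fold higher in GM-BMDC than in M-BMM (0.82 ± 0.18, limma adjusted p = 0.0207).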
